A study of Caenorhabditis elegans with 12 samples.

Results

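Aminoacyl-tRNA synthetase genes of Caenorhabditis elegans were followed across 3 genotypes at the level of mRNA and of ribosome-protected fragments (RPF). The members were set by a rule on names, as rows whose symbol is a single amino acid letter followed by ars-1 or ars-2. This choice was made with earlier results of these data known. The rule found 32 genes among the 46778 in the count table. Of these, 19 encode cytosolic enzymes, 12 encode mitochondrial enzymes and 1, cars-2, is annotated as a pseudogene. They lie on chromosome I (10 genes), II (4), III (6), IV (8) and V (4).

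Aminoacyl-tRNA synthetases join each amino acid to its cognate tRNA, the step that gives the genetic code its meaning before the ribosome reads it. They fall into classes I and II, which have unrelated catalytic folds. Nuclear genes supply separate enzymes for the cytosol and for the mitochondrial matrix, and a few genes serve both compartments. Such genes, among which gars-1, hars-1 and kars-1 are thought to be, are counted as cytosolic here. When charging of a tRNA falls short, uncharged tRNA can activate the kinase GCN-2 and slow translation.

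Whole worms of the wild type (WT, strain N2), of the ced-3(n717) mutant and of the pmk-1(km25) mutant were compared. CED-3 is the caspase of programmed cell death in the worm, and PMK-1 is a p38 mitogen-activated protein kinase of innate immunity and stress responses. In all 3 strains, bleached eggs hatched over 24 h without food. Feeding on OP50, a strain of Escherichia coli, then lasted 18 h at 20 °C, by which time over 90% of WT worms were in the L3 larval stage. Each strain has 2 biological replicates, which the submitters call independent, and each worm sample gave 1 mRNA library and 1 RPF library. The mutants are not said to have been staged on their own, and whether replicates came from separate cultures is not stated, so p-values cover only the spread between these samples.

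The mRNA libraries held 15471380 to 17150137 counts and the RPF libraries 6708805 to 10115985. The mRNA counts of the targeted genes do not check the labels, because counts over a whole gene do not resolve either lesion. In mRNA pmk-1 had 525 and 599 counts in its mutant and 599 and 558 in WT, and ced-3 had 92 and 108 in its mutant and 81 and 36 in WT. The RPF counts of pmk-1 were lower in its mutant, at 231 and 253, than in WT (351 and 494) and ced-3 (320 and 448). Those mutant libraries held 9596693 and 10115985 counts in all, against 7756367 and 9743628 in WT. The RPF counts of ced-3 were 40 and 36 in its mutant and 44 and 30 in WT. Whether the lesion lowers the pmk-1 footprints was not tested. The libraries differed in markers of larval timing. The 8 moult genes summed to 189 to 190 CPM (counts scaled to a common library size) in WT mRNA. They summed to 910 and 1588 in ced-3 replicates 1 and 2, and to 1988 and 471 in pmk-1 replicates 1 and 2. These sums were not made up alike in the mutants. The gene sqt-1 had 35.2 and 25.1 CPM in WT, 308 and 581 in ced-3, and 30.7 and 36.3 in pmk-1. The gene mlt-11 had 26.5 and 24.1, 173 and 258, and 639 and 77.7. Like sqt-1, mlt-10 and wrt-1 were far nearer to WT in pmk-1 than in ced-3. The 6 hypodermal genes summed to 171 to 191 CPM in WT, 1022 and 2411 in ced-3 and 229 to 256 in pmk-1. Most of the ced-3 sums was dpy-13, at 704 and 1842 CPM. The pmk-1 sums hid genes that went different ways. In pmk-1 replicates 1 and 2, dpy-7 had 147 and 33.5 CPM against 7.75 and 10.5 in WT. In the same libraries dpy-13 had 32.5 and 106 CPM against 100 and 73.7 in WT. The hypodermal elt-1 was not raised, at 25.5 and 21.1 CPM in ced-3 against 26.5 and 34.3 in WT. The 6 intestinal genes summed to 3334 to 3413, 1889 to 2511 and 2820 to 2843 CPM. Against that sum, ges-1 was higher in ced-3, at 56.2 and 59.1 CPM against 50.3 and 44.6 in WT. The 8 germline genes stayed between 277 and 354 CPM, and no marker of these 4 lists was at 0 in every library.

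Levels per kilobase of coding length separated the compartments in WT mRNA. The cytosolic genes ran from 52.3 to 277 CPM per kb with a median of 123, and the mitochondrial genes from 10.03 to 41.5 with a median of 21.5, so that the ranges did not overlap. Summed, the 19 cytosolic genes gave 2636 CPM per kb and the 12 mitochondrial genes 278. In RPF libraries the ranges met, because cars-1 stood at 39.7 CPM per kb and the mitochondrial fars-2 at 49.6.

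The most abundant cytosolic mRNA was sars-1, the seryl-tRNA synthetase, at 277 ± 8.59 CPM per kb (SD, n = 2). The aspartyl gene dars-1 followed with 220 ± 2.82 and the lysyl gene kars-1 with 220 ± 13.5, which did not differ beyond the spread of kars-1. The lowest cytosolic mRNAs were wars-1 for tryptophan at 78.7 ± 0.33, yars-1 for tyrosine at 75.2 ± 2.44 and cars-1 for cysteine at 52.3 ± 4.34. Only 5.29-fold separated the top and the bottom of the cytosolic enzymes.

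Among mitochondrial enzymes the highest mRNA levels were those of fars-2 for phenylalanine with 41.5 ± 3.25 CPM per kb, iars-2 for isoleucine with 38.8 ± 0.52 and sars-2 for serine with 35.2 ± 1.01. The lowest were ears-2 for glutamate with 14.5 ± 0.25, dars-2 for aspartate with 11.2 ± 0.81 and rars-2 for arginine with 10.03 ± 0.79. The mitochondrial range was 4.14-fold, somewhat narrower than the cytosolic one.

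For 11 amino acids the rule named both a cytosolic and a mitochondrial gene. In every one of these pairs and in all 12 libraries the cytosolic gene was the higher, by 2.33-fold at the least and 27.3-fold at the most. In WT mRNA the ratio was lowest for phenylalanine (fars-1 over fars-2, 2.46) and tyrosine (yars-1 over yars-2, 3.0) and highest for aspartate (dars-1 over dars-2, 19.7). The median ratio was 8.0 in WT mRNA and 9.31 in WT RPF, and 10 of the 11 ratios, as means of the replicates, were higher in RPF. The exception was leucine. By replicate, the WT ratios in RPF and mRNA overlapped for glutamate (8.93 and 10.6 against 9.76 and 9.40). They also overlapped for aspartate (27.3 and 19.9 against 18.9 and 20.6). Valine had only the mitochondrial vars-1 under the rule, at 24.1 ± 0.4 CPM per kb in WT mRNA.

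**Figure D1:**
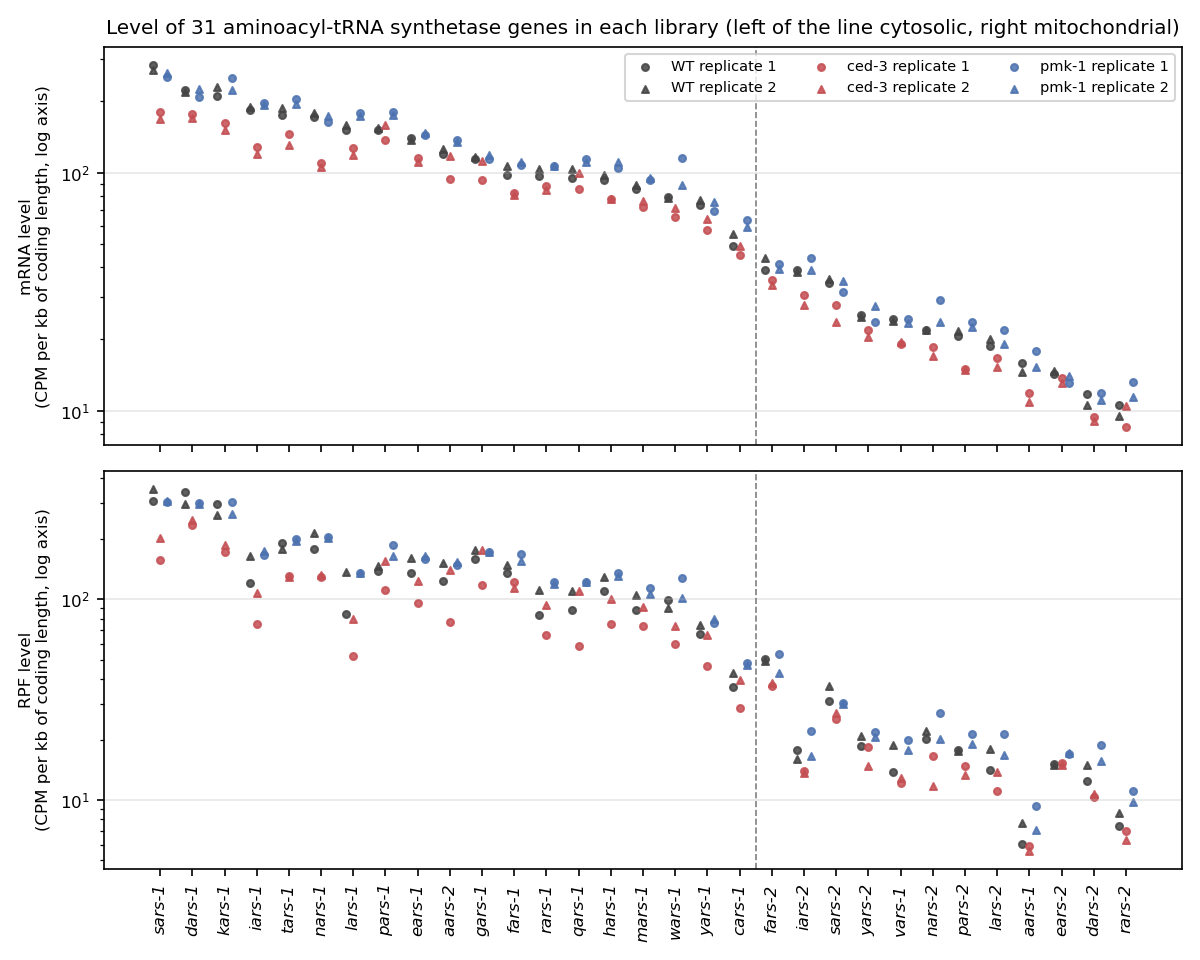
Level of each of the 31 protein-coding synthetase genes in CPM per kb of coding length (log axis) in the mRNA libraries (upper panel) and the RPF libraries (lower panel). Each point is 1 library, coloured by genotype and shaped by replicate, and genes are ordered by WT mRNA level within the cytosolic group (left of the dashed line) and the mitochondrial group (right). The mRNA ranges of the groups do not overlap in WT, 52.3 to 277 against 10.03 to 41.5, and the ced-3 points lie lowest at most genes.

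The annotated pseudogene cars-2 (chromosome I, 2629685 to 2632320, plus strand, WBcel235) lies beside cars-1, the cysteinyl gene. It had 871 mRNA counts over the 6 libraries, 100 to 196 each, which is 8.94 CPM (95% exact Poisson interval 8.36 to 9.56, counting error only). Over the 6 RPF libraries it had 15 counts, 0 to 6 each, or 0.283 CPM (interval 0.158 to 0.466). The neighbouring cars-1 had 14206 mRNA counts and 5928 RPF counts, 146 and 112 CPM. So transcripts of cars-2 were counted in every mRNA library, with very few fragments in RPF. Whether reads of near-identical stretches of these genes were split or dropped in counting was not tested.

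In ced-3 worms nearly all synthetase mRNAs were lower than in WT, each by a modest amount. Of the 32 genes, 31 had a log2 fold below 0, against 49.9% of all 13536 genes tested, and their median log2 fold was -0.29, a ratio of 0.816, against 0.00 for all genes. For 27 genes both ced-3 libraries lay below both WT libraries, which 29.7% of all genes did. The share of all counts that fell on the 32 genes was 0.611% and 0.631% in the WT replicates and 0.511% and 0.527% in the ced-3 replicates. These are whole worms, in which fewer cells of a type and less RNA per cell cannot be told apart. The moult and hypodermal markers given above also differed between these groups, and their part in the synthetase values was not tested.

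At an adjusted p below 0.05 only 2 synthetase mRNAs fell, and none rose. All genes tested gave 1.77% of calls in either direction and 0.369% lower. Both called genes encode cytosolic class II enzymes, for asparagine and for serine. At an unadjusted p below 0.05 there were 16 synthetase genes, against 23.5% of all genes.

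The asparaginyl gene nars-1 (chromosome I, 7088030 to 7090062, minus strand) had 282 and 293 CPM in the WT mRNA libraries, 179 and 173 in ced-3, and 269 and 282 in pmk-1. Its ced-3 values lay far below the other 4, which overlapped. Its log2 fold in ced-3 against WT was -0.71 ± 0.11 (SE), a ratio of 0.613, with adjusted p = 0.0481 by edgeR's quasi-likelihood test.

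The seryl gene sars-1 (chromosome IV, 10003726 to 10005578, plus strand) had 414 and 397 CPM in WT mRNA, 263 and 247 in ced-3, and 371 and 382 in pmk-1. Here the 3 genotypes formed separate bands, with ced-3 lowest. Its log2 fold in ced-3 against WT was -0.67 ± 0.11, a ratio of 0.629, with adjusted p = 0.0498 in edgeR. A coding gene overlaps sars-1 on the other strand, so its count may be incomplete or mixed where strand was not used.

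Both calls sat at the threshold. Neither was called with the compared groups fitted alone, or without WT replicate 1 or 2, ced-3 replicate 2 or pmk-1 replicate 1 or 2, when no member was called. Among all genes, none was called without either WT replicate, and 0.707% to 2.8% were called in the other 4 of these fits. Without ced-3 replicate 1 there were 3 synthetase calls, against 10.6% of all genes. DESeq2 called 5 synthetase genes (iars-1, kars-1, nars-1, pars-2 and sars-1), against 9.88% of all genes. Over the 13 alternatives the adjusted p of nars-1 ran from 6.4e-06 to 0.398 and that of sars-1 from 2.8e-05 to 0.398, but their log2 folds stayed between -0.74 and -0.67 and between -0.72 and -0.62.

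The isoleucyl gene iars-1 had 631 and 650 CPM in WT mRNA, 441 and 411 in ced-3, and 669 and 660 in pmk-1. The mitochondrial prolyl gene pars-2 had 28.1 and 29.5, 20.5 and 20.3, and 32.1 and 30.7. In both genes the ced-3 libraries were the lowest, with no overlap. Their log2 folds in ced-3 against WT, -0.59 ± 0.11 and -0.50 ± 0.11, missed the threshold in edgeR with adjusted p = 0.0567 and 0.0782.

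The compartments and the classes gave like medians. The 19 cytosolic genes had a median log2 fold of -0.30 in ced-3 against WT, and the 12 mitochondrial genes -0.29, with all 31 below 0. The class I genes had a median of -0.25 and the class II genes of -0.34. The gene with a fold above 0 was the pseudogene cars-2, with 0.36 ± 0.23. Prolyl pars-1 and arginyl rars-2 were nearest to 0 among coding genes, with -0.05 ± 0.12 and -0.08 ± 0.17. Across the 19 cytosolic genes the fold was lower where the mRNA level in pmk-1 worms was higher (Pearson r = -0.59). Across the 12 mitochondrial genes r was -0.53, and across all 31 coding genes it was only -0.28. Spearman's rho was -0.58, -0.37 and -0.28 in the same order. These are descriptions over genes that share libraries.

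In pmk-1 worms no synthetase mRNA passed the test against WT, with 0.421% of all genes called. DESeq2 called 0 as well, and none had an unadjusted p below 0.05, against 9.51% of all genes. Of the 32 folds 23 were above 0, against 50% of all genes, with a median of 0.09 against 0.00 for all genes, and the members' share of counts was 0.647% and 0.660%. In 16 genes both pmk-1 libraries lay above both WT libraries and in 2 below, against 22.5% and 23.6% of all genes.

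The largest fold was that of tryptophanyl wars-1, with 99.0 and 98.4 CPM in WT and 144 and 111 in pmk-1, a log2 fold of 0.37 ± 0.15. Its pmk-1 replicates differed from each other by more than the lower one differed from WT. Next came the mitochondrial rars-2 for arginine with 0.30 ± 0.17 and nars-2 for asparagine with 0.26 ± 0.15, and then cars-1 with 0.23 ± 0.12.

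Against pmk-1, 8 synthetase mRNAs fell in ced-3 and none rose, while 2.5% of all genes were called lower and 9.21% in either direction. They encode the cytosolic enzymes for asparagine (nars-1, log2 fold -0.65 ± 0.11), isoleucine (iars-1, -0.64 ± 0.11), lysine (kars-1, -0.59 ± 0.12), serine (sars-1, -0.56 ± 0.11), threonine (tars-1, -0.52 ± 0.12), leucine (lars-1, -0.52 ± 0.11) and histidine (hars-1, -0.47 ± 0.10), and the mitochondrial enzyme for proline (pars-2, -0.62 ± 0.11). Their adjusted p by edgeR lay between 0.0314 and 0.0485, and 22 genes had an unadjusted p below 0.05, against 29.8% of all genes. Altogether 31 of the 32 folds were below 0, against 50.2% of all genes. For 30 of the 32 genes both ced-3 libraries were below both pmk-1 libraries, against 28.8% of all genes, and the median log2 fold was -0.37. This comparison uses the same ced-3 libraries as the one with WT.

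These calls too depended on which libraries and terms were fitted. None of the 8 was called with the compared groups fitted alone, and none was called without WT replicate 1 or 2, ced-3 replicate 2 or either pmk-1 replicate. Of all genes, 0 were called with the groups alone, 3 without either WT replicate, 64 without pmk-1 replicate 1 and 377 without ced-3 replicate 2. Without pmk-1 replicate 2 the only synthetase call was wars-1, against 7.14% of all genes. Without ced-3 replicate 1 there were 8 calls, 7 of them among the named 8, against 13.1% of all genes. The count was 5, against 10.7% of all genes, without ced-3 replicate 2 and pmk-1 replicate 1, the libraries highest in moult markers in their groups. It was 14 in DESeq2, against 15.4% of all genes.

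The lysyl gene kars-1 had 289 and 272 CPM in ced-3 mRNA against 445 and 397 in pmk-1 and 376 and 410 in WT. All 4 of the latter lay above both ced-3 values. The leucyl gene lars-1 had 450 and 423 CPM in ced-3, 633 and 617 in pmk-1 and 540 and 567 in WT. The threonyl gene tars-1 had 317 and 284, 443 and 422, and 382 and 408. The histidyl gene hars-1 had 122 and 123, 165 and 174, and 146 and 154. In lars-1, tars-1 and hars-1 WT lay between the mutants, with no overlap of groups.

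Over the 31 coding genes, the pair of ced-3 libraries was the lowest of the 6 in 26, namely in 16 of 19 cytosolic and 10 of 12 mitochondrial genes, and in 20.1% of all genes tested. The exceptions were cars-1, qars-1 and pars-1 in the cytosolic group and ears-2 and rars-2 in the mitochondrial group.

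The pmk-1 replicates differed in moult markers, which summed to 1988 and 471 CPM in mRNA and 2933 and 687 in RPF. In mRNA the 19 cytosolic genes summed to 2801 and 2771 CPM per kb in these replicates and the 12 mitochondrial genes to 295 and 281. In RPF the sums were 3193 and 3090, and 274 and 233. The median log2 difference between the mRNA replicates over the 32 genes was 0.03. The part of moult timing in the synthetase levels was not tested.

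**Figure D2:**
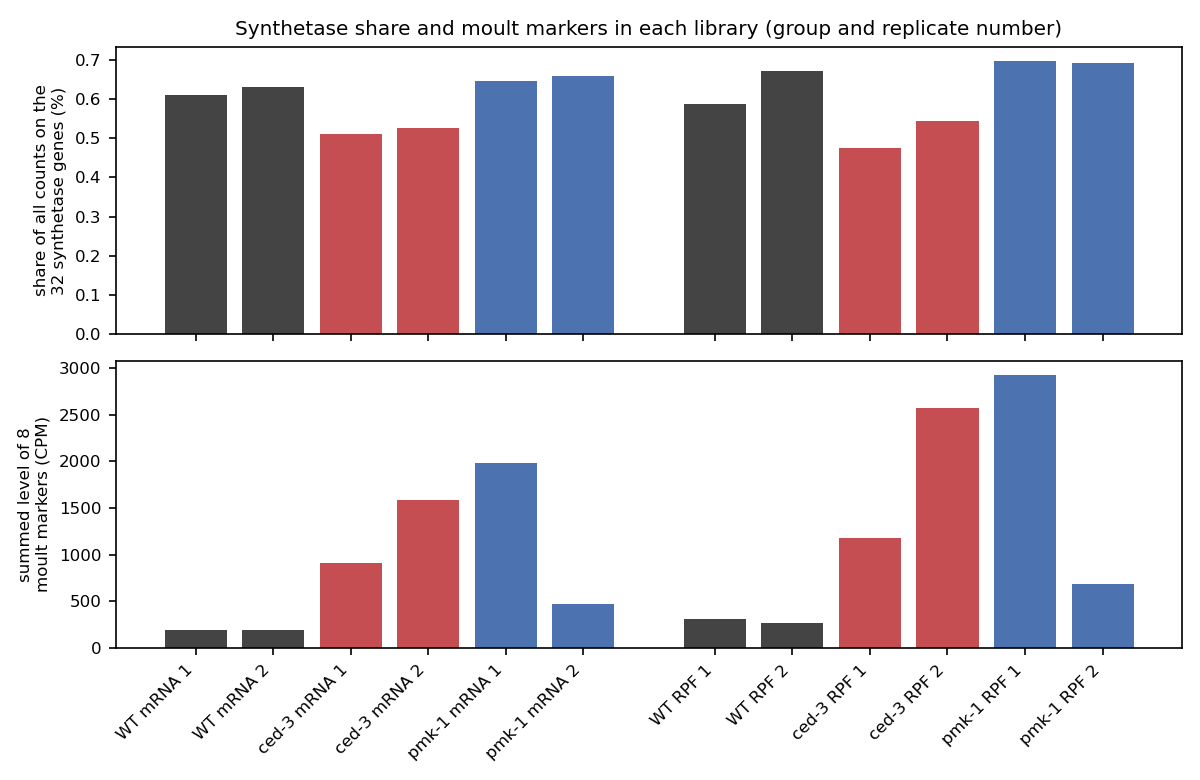
Share of all counts on the 32 synthetase genes in percent (upper panel) and summed level of the 8 moult markers in CPM (lower panel), with 1 bar per library, coloured by genotype. The synthetase share is lowest in the ced-3 libraries in both assays, 0.511% and 0.527% in mRNA, while the moult markers are at 189 to 190 CPM in WT mRNA, 910 and 1588 in the ced-3 replicates, and 1988 and 471 in the pmk-1 replicates.

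Footprints on synthetase transcripts were lower in ced-3 as well, with no gene past the threshold. The pseudogene cars-2 had too few RPF counts to be tested, which leaves 31 genes. In ced-3 against WT, 30 of these had a log2 fold below 0, against 48.8% of all 12633 genes, with a median of -0.37 against 0.01 for all genes. None was called by edgeR, with 0.0554% of all genes called. At an unadjusted p below 0.05 there were 9 synthetase genes, against 23.7% of all genes, and DESeq2 called 4 (kars-1, nars-1, sars-1 and tars-1), against 10.4% of all genes. For 23 genes both ced-3 libraries lay below both WT libraries, against 26.6% of all genes.

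The sars-1 footprints were 452 and 520 CPM in WT, 230 and 295 in ced-3, and 447 and 449 in pmk-1. The ced-3 values were again separate from the rest. The log2 fold against WT, -0.89 ± 0.18, missed the threshold with adjusted p = 0.0660 in edgeR. The next folds were those of lars-1 with -0.74 ± 0.30, kars-1 with -0.64 ± 0.16 and iars-1 with -0.64 ± 0.24. Over the 13 alternatives the fold of lars-1 ran from -1.09 to -0.35 and that of iars-1 from -0.92 to -0.40. Without ced-3 replicate 2 and pmk-1 replicate 1, 4 synthetase genes were called (aars-2, iars-1, qars-1 and sars-1), against 9.91% of all genes.

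In the WT pair of RPF libraries 24 members were lower in replicate 1, with a median log2 difference of -0.22, against -0.07 in mRNA. Leucyl lars-1, the longest of the coding sequences, had 299 and 485 CPM in WT RPF and 185 and 285 in ced-3 RPF, against 540 and 567, and 450 and 423, in mRNA. The lower RPF value came from the shallower library each time. Over the 31 coding genes the log2 ratio of RPF replicate 1 to 2 went down with coding length in WT (r = -0.54), ced-3 (-0.52) and pmk-1 (-0.23), while the same r in mRNA lay between -0.09 and 0.03.

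In pmk-1 against WT, 27 of the 31 footprint folds were above 0, against 50.8% of all genes, with a median of 0.19. None was called by edgeR, with 0.182% of all genes called. None had an unadjusted p below 0.05, against 8.68% of all genes, and DESeq2 called 0. The largest were rars-2 with 0.38 ± 0.20, dars-2 with 0.32 ± 0.18, rars-1 with 0.31 ± 0.23 and pars-1 with 0.30 ± 0.20. For 15 genes both pmk-1 libraries lay above both WT libraries and for 2 below, against 22% and 21.8% of all genes.

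In ced-3 against pmk-1 all 31 footprint folds were below 0, against 48.9% of all genes, with a median of -0.53, a ratio of 0.691. None was called by edgeR, with 8.61% of all genes called and 2.56% called lower. At an unadjusted p below 0.05 there were 18, against 29.8% of all genes, and DESeq2 called 8, against 15.2% of all genes. The fold was lowest in lars-1 with -1.02 ± 0.30, followed by iars-1 with -0.89 ± 0.24, wars-1 with -0.77 ± 0.19 and sars-1 with -0.77 ± 0.18. Over the 13 alternatives lars-1 ran from -1.37 to -0.75 and iars-1 from -1.20 to -0.67. The adjusted p of sars-1 was 0.0539. For 30 genes the libraries did not overlap, against 31.4% of all genes. Leaving out ced-3 replicate 2 gave 4 calls (aars-2, iars-1, qars-1 and sars-1), against 4.91% of all genes. Over the 31 coding genes the pair of ced-3 libraries was the lowest of the 6 RPF libraries in 23, against 20.3% of all genes.

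**Figure D3:**
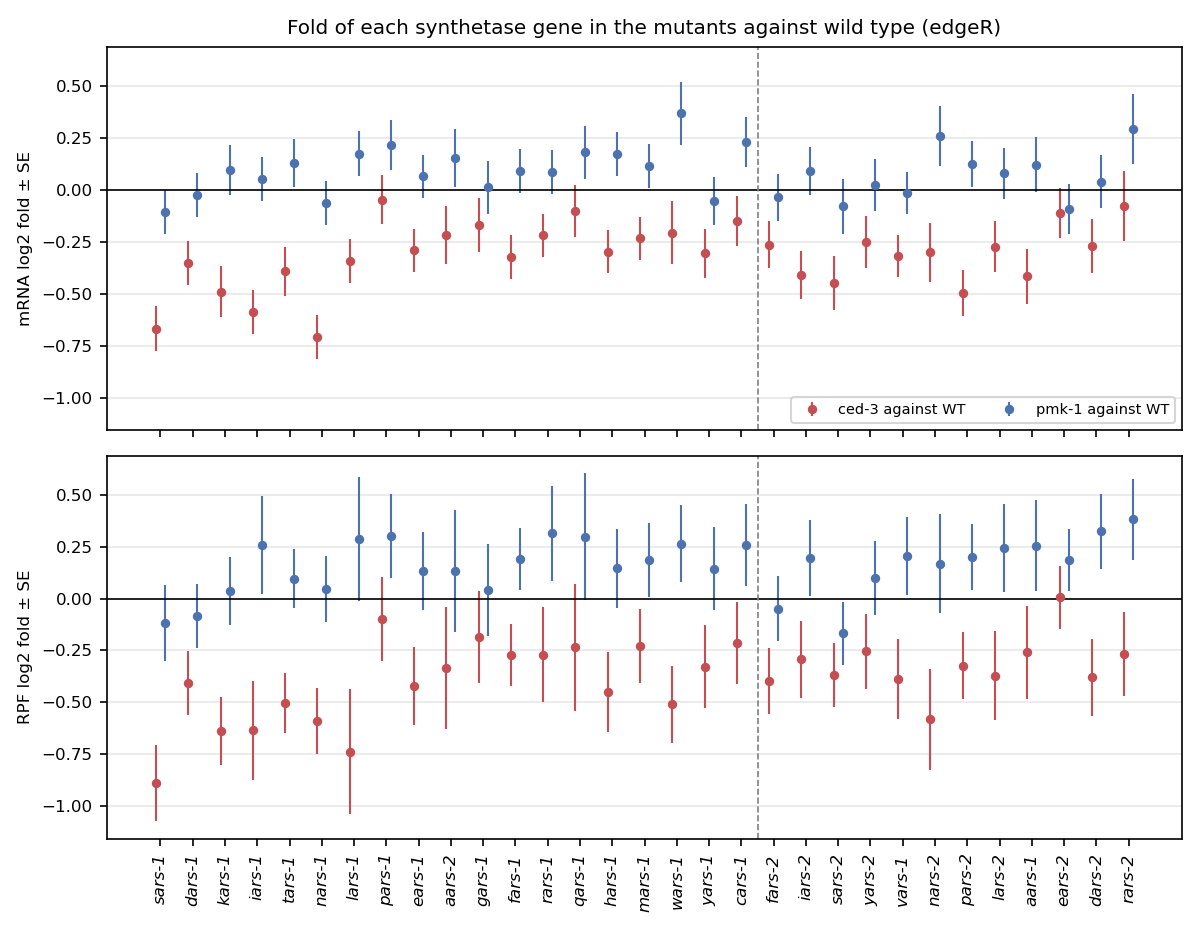
Log2 fold against WT of each of the 31 coding synthetase genes in ced-3 (red) and pmk-1 (blue), for mRNA (upper panel) and RPF (lower panel), with bars of 1 SE from the edgeR fit. The ced-3 folds lie below 0 in all but ears-2 in RPF, with medians of -0.29 over the 32 genes in mRNA and -0.37 in RPF, while the pmk-1 folds scatter about and above 0. Genes are in the order of WT mRNA level, with mitochondrial genes right of the dashed line.

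Translational efficiency, the RPF level relative to mRNA, was compared between genotypes with an interaction term over all 12 libraries. This main fit did not match the RPF and mRNA libraries of a worm sample. No synthetase gene was called in ced-3 against WT, in pmk-1 against WT or in ced-3 against pmk-1. None had an unadjusted p below 0.05 in these comparisons. The test called 0% of the 13698 genes in each, with 1.61%, 1.26% and 1.83% at an unadjusted p below 0.05. DESeq2 and a fit with the worm sample as a block also called no synthetase gene. The members' median log2 differences were -0.00, 0.07 and -0.07, against 0.06, 0.01 and 0.06 over all genes.

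Among genes with a mean of at least 5 CPM, the largest differences in efficiency in ced-3 against WT were those of lars-1 with -0.33 ± 0.34, wars-1 with -0.24 ± 0.24, pars-2 with 0.23 ± 0.16 and nars-2 with -0.22 ± 0.28. In pmk-1 against WT they were dars-2 and ears-2, each with 0.28, rars-1 with 0.23 ± 0.25 and vars-1 with 0.22 ± 0.21. In ced-3 against pmk-1 they were lars-1 with -0.44 ± 0.34, dars-2 with -0.33 ± 0.20, sars-2 with 0.23 ± 0.18 and vars-1 with -0.22 ± 0.21. For nars-1 the difference in ced-3 against WT was 0.18 ± 0.17 and for sars-1 it was -0.16 ± 0.20. With SEs of this size a moderate change in efficiency of a single gene was not detectable.

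Relative to mRNA, the synthetases themselves differed in how many footprints they carried. In WT 10 genes were lower in RPF than in mRNA and none was higher, against 19.6% of all genes lower and 13.6% higher. By compartment, 6 of the 12 mitochondrial genes and 3 of the 19 cytosolic genes were lower, beside cars-2. By class, 7 of 15 class I genes and 2 of 16 class II genes were lower. The scale sets the typical gene near 0, and mRNA counts include untranslated exon parts that hold few footprints.

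The lowest coding gene was iars-2, the mitochondrial isoleucyl enzyme, with 114 and 112 CPM in WT mRNA and 51.7 and 46.7 in WT RPF. Its log2 RPF over mRNA was -1.35 and -1.49 in the WT worm samples, -1.27 and -1.20 in ced-3, and -1.19 and -1.46 in pmk-1. The fitted WT value was -1.41 ± 0.15. Another coding gene overlaps iars-2 on each strand, so reads could be lost or mixed in its counts. The mitochondrial alanyl gene aars-1 (-1.36 ± 0.17) and valyl gene vars-1 (-0.77 ± 0.15) followed. All 3 were low in each of the 6 worm samples.

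The other called genes in WT were lars-1 (-0.71 ± 0.24), cars-1 (-0.61 ± 0.16), iars-1 (-0.61 ± 0.19), yars-2 (-0.56 ± 0.14), rars-2 (-0.53 ± 0.17) and pars-2 (-0.48 ± 0.12), together with cars-2. In edgeR the adjusted p of the called genes lay between 0.000210 and 0.0487.

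At the top stood the cytosolic class II genes dars-1 for aspartate (0.32 ± 0.11), gars-1 for glycine (0.32 ± 0.18) and fars-1, the alpha subunit for phenylalanine (0.26 ± 0.11). Their ratios were above 0 in all 6 worm samples, which 32.5% of all genes tested were. No other member was, while 17 of the 31 were below 0 in all 6, against 31.5% of all genes. With edgeR fars-1 was called higher in ced-3 (0.37 ± 0.11, adjusted p = 0.0290) and in pmk-1 (0.36 ± 0.11, adjusted p = 0.0358).

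In ced-3 worms 11 members were called, 10 of them lower, against 19.1% of all genes lower and 16.7% higher. Beside fars-1 they were iars-2, aars-1, lars-1, vars-1, rars-2, cars-1, iars-1, lars-2, yars-2 and cars-2, the coding ones between -1.24 and -0.50. In pmk-1 worms 8 were called, 7 of them lower, against 19.6% and 14.7%. These were iars-2, aars-1, cars-1, vars-1, yars-2, pars-2 and cars-2, the coding ones between -1.31 and -0.41.

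Since RPF and mRNA came from the same worm sample, the pairs can be matched. With the worm sample as a block, 16, 17 and 16 members were called in WT, ced-3 and pmk-1, when 52.4%, 57.5% and 54.4% of all genes were. In WT 13 of the 16 were lower, and dars-1, gars-1 and fars-1 were higher. Without 1 of the WT worm samples 3 or 4 members were called, iars-2, aars-1 and cars-2 in both cases, against 10.9% and 11.8% of all genes. In ced-3 worms 5 members were called without ced-3 replicate 1, against 21.3% of all genes, and in pmk-1 worms 3 without either pmk-1 sample, against 14.8% and 14.3%.

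The ratio was set beside coding length as a description. In WT the log2 ratio and the coding length had r = -0.65 over the 19 cytosolic genes, which span 1254 to 3561 bases, and r = -0.69 over the 12 mitochondrial genes, which span 1257 to 2937. Over all 31 genes r was -0.42. Spearman's rho was -0.59 in the cytosolic group, -0.49 in the mitochondrial group and -0.36 overall. With the coding percentage of exon length, r was 0.71 over the mitochondrial genes, -0.33 over the cytosolic genes and 0.05 over all 31. The points share libraries. Length also went with the difference between RPF replicates, as given above, and its part in this ratio was not tested.

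**Figure D4:**
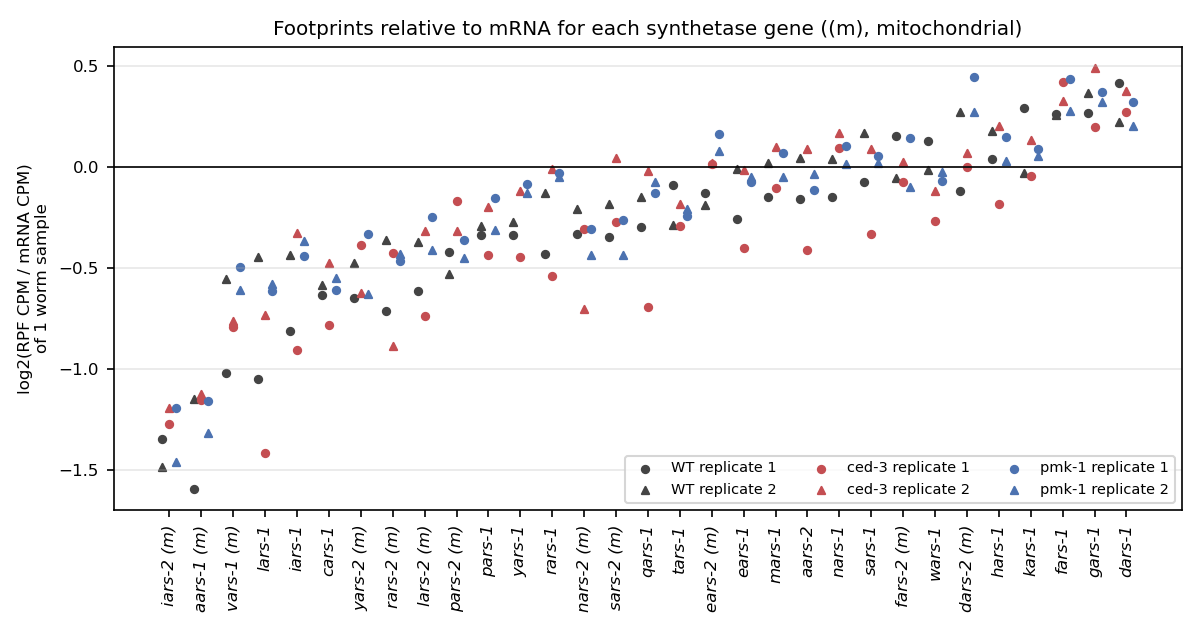
Log2 ratio of RPF CPM to mRNA CPM of 1 worm sample for each of the 31 coding synthetase genes, ordered by the WT mean, with colour for genotype and shape for replicate and (m) marking mitochondrial enzymes. The genes iars-2 and aars-1 lie below -1 in all 6 worm samples, and dars-1, gars-1 and fars-1 lie above 0 in all 6.

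The valyl-tRNA synthetase gene glp-4, which has a name outside the rule and was looked up after its values were known, was lower in ced-3 by more than any member. It had 1224 and 1194 CPM in WT mRNA, 484 and 372 in ced-3, and 976 and 1088 in pmk-1. The ced-3 libraries were far below the others. The log2 fold against WT was -1.50 ± 0.16 with adjusted p = 0.0390 by edgeR, and in RPF it was -1.65 ± 0.19 with adjusted p = 0.0528. Without either WT mRNA replicate no gene of the table was called in this comparison, so the mRNA call of glp-4 was lost. The gene fars-3, the beta subunit for phenylalanine, had -0.18 ± 0.10 and -0.39 ± 0.17 and was not called.

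Other genes of the pathway were read from lists. The list of delivery and elongation factors, which carry charged tRNA to the ribosome and move it through, had 10 tested genes, none called in ced-3 against WT, and medians of -0.41 in mRNA and -0.76 in RPF. The mitochondrial elongation factor gene tufm-2 had the smallest p in mRNA, with a log2 fold of -0.55 ± 0.11 and adjusted p = 0.0654 in edgeR. In ced-3 against pmk-1, tufm-2 (-0.70 ± 0.11) and gfm-1 (-0.70 ± 0.12) fell in mRNA. In RPF eef-1A.2 (-1.05 ± 0.17), tufm-1 (-0.81 ± 0.15), eef-1B.2 (-0.84 ± 0.19) and tufm-2 (-0.93 ± 0.21) fell. Among all genes, 2.5% were called lower in mRNA and 2.56% in RPF in this comparison. With the compared groups fitted alone 0% of all genes were called in either assay, so these calls were lost. No gene of this list was called in pmk-1 against WT.

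Of 17 tested genes for tRNA modification, processing and export, 1 fell in ced-3 against WT mRNA: hoe-1, the tRNA 3′ end processing nuclease, with -1.51 ± 0.19 (adjusted p = 0.0415, edgeR). That call too was lost without either WT replicate. The list's median was -0.27. Against pmk-1, hoe-1 fell in mRNA (-0.88 ± 0.18) and RPF (-1.09 ± 0.21), and tgt-2 fell in RPF (-0.66 ± 0.15). The calls against pmk-1 were lost with the compared groups fitted alone, when 0% of all genes were called in either assay.

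The list for uncharged tRNA and amino acid stress had 11 tested genes and no call in either mutant against WT. Its sensor gcn-2 had a log2 fold of -0.16 ± 0.13 in ced-3 mRNA, its downstream factor atf-5 had 0.02 ± 0.23, and asparagine synthetase asns-2 had the smallest p, with -1.21 ± 0.23 in ced-3 and -1.52 ± 0.23 in pmk-1 (adjusted p = 0.0610 and 0.0816, edgeR). Against pmk-1, cbl-1 fell in ced-3 in mRNA (-1.41 ± 0.23) and RPF (-1.72 ± 0.31). Both calls were lost with the compared groups fitted alone, when 0% of all genes were called in either assay. None of the 10 genes of TOR signalling, which couples amino acids to growth, was called between genotypes in mRNA or RPF, with a median of -0.13 in ced-3 mRNA against WT.

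Among the 12 tested amino acid transport genes, 1 was called higher and none lower in ced-3 mRNA against WT, with a median of -0.23. The gene called was aat-8 (adjusted p = 0.0498, edgeR; called against pmk-1 as well), at 1.06 and 1.61 CPM in ced-3 against 0.0620 and 0.127 in WT, which lies below 3 counts per library, so no fold is given. Against pmk-1, atgp-2 fell in mRNA (-0.82 ± 0.18), and pept-1 (-0.89 ± 0.15), aat-2 (-0.94 ± 0.17) and aat-6 (-0.84 ± 0.19) fell in RPF. In this comparison 2.5% of all genes were called lower in mRNA and 2.56% in RPF. With the compared groups fitted alone 0% were called in either assay, so these calls and that of aat-8 against pmk-1 were lost. The peptide transporter gene pept-1 is also 1 of the 6 intestinal markers, whose sum was lower in ced-3, though ges-1 of that list was higher.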

How the data were processed

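Deposited values are whole-number read counts per gene for 12 libraries, unnormalized; per the submitters' processing notes the tools were Bowtie2, STAR and HTSeq with WBcel235, and their settings and strand use are not given in the sources used here. Of the 32 members, 15 overlap another coding gene, where counting could lose or mix reads. Genes were tested with edgeR 4.0.16 (R 4.3.3; filterByExpr with minimum count 10 and total 15, TMM, robust quasi-likelihood fit), 1 fit per assay over 6 libraries (13536 and 12633 genes) and 1 over all 12 (13698 genes) for RPF against mRNA and for the interaction. Benjamini-Hochberg adjustment covered all genes tested, with threshold 0.05. An SE is the log2 fold divided by the root of the F statistic. CPM use TMM library sizes, except those given with the counts of the pseudogene cars-2 and its neighbour, which use total counts. Lengths are the longest coding sequence in the WBcel235 annotation. The scripts were checked on simulated counts.

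Members and lists were chosen with earlier results of these data known. Text names every member past the threshold, the largest folds up to 4 where fewer passed, the 3 highest and lowest levels, and, from other lists, at most 4 called genes or the smallest p. Compartments follow textbook knowledge. Alternatives were RLE scaling, no filter, DESeq2 1.42.0, a non-robust fit, a replicate block, the compared groups alone, leaving out each library, and, chosen after seeing the data, leaving out ced-3 replicate 2 with pmk-1 replicate 1. The labels derive RPF and mRNA from the same worm sample. Their deviations from group means correlated at 0.17 (WT), 0.62 (ced-3) and 0.66 (pmk-1) over all genes. Over the members these correlations were 0.17 (WT), 0.19 (ced-3) and 0.77 (pmk-1). The main fits used group means and did not match these pairs. Worm samples were matched only in the block alternative and in the ratios given per worm sample. Total counts, given with the results, limit precision; intervals cover counting error only.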

Additional observations from a re-analysis of the deposited data

How the results depend on the processing

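Members with a fold below 0 in ced-3 against WT mRNA numbered 28 to 31 over the alternatives. Over 13 alternatives the members' median log2 fold stayed between -0.31 and -0.27 (ced-3 against WT, mRNA), -0.47 and -0.25 (RPF), 0.06 and 0.10 (pmk-1 against WT, mRNA), and 0.08 and 0.25 (RPF), while that of efficiency in ced-3 against WT went from -0.12 to 0.12 over 11. Counts of called members moved. In ced-3 against WT mRNA (2) they were 1 with RLE scaling, 5 in DESeq2, 0 with the replicate block, 0 with the compared groups alone and 0 to 3 leaving out 1 library. In ced-3 against pmk-1 mRNA (8) they were 14 in DESeq2, 0 with the block, 0 with the groups alone, 0 to 8 leaving out 1 library, and 5 without both libraries highest in moult markers. In RPF, ced-3 against WT (0) gave 1 with no filter, 4 in DESeq2 and 4 without those libraries, and ced-3 against pmk-1 (0) gave 9, 8 and 5, and 0 to 4 leaving out 1 library. RPF against mRNA gave 16, 17 and 16 with the block, and 3 to 11 (WT), 5 to 9 (ced-3) and 3 to 10 (pmk-1) leaving out 1 library. The share of all genes called moved as well. In ced-3 against WT mRNA (1.77%) it was 1.23% with RLE scaling and 9.88% in DESeq2. There it was 0% with the replicate block and 2.57% with the compared groups alone. In ced-3 against pmk-1 mRNA (9.21%) it was 15.4% in DESeq2, 4.17% with the block and 0% with the groups alone. In RPF, no filter and DESeq2 gave 5.28% and 10.4% against WT, and 8.94% and 15.2% against pmk-1. The compared groups alone gave 1.6% against WT and 0% against pmk-1 in RPF. A lone library left in a group is assumed to vary like the others. The cause was not tested.

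Over all genes, deviations of the same replicate number correlated at only -0.10 to 0.11 between genotypes. Over the members this correlation ran from -0.32 (ced-3 and pmk-1, RPF) to 0.74 (pmk-1 and WT, RPF). Whether replicate numbers mark a shared batch was not tested, so calls with the block are given beside the main ones. With summed exon length the median levels were 114 (cytosolic) and 19.2 CPM per kb (mitochondrial), and with total counts as library sizes the latter was 21.1. Over counts of protein-coding genes the members' share was 0.705% (WT), 0.588% (ced-3) and 0.735% (pmk-1) in mRNA and 0.714% in pmk-1 RPF. RPF depth, below that of mRNA, limits single genes.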
